A study of Arabidopsis thaliana with 6 samples.

Results

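The 42 nuclear genes described here encode the light-harvesting antenna of photosystem I (4 genes, LHCA1 to LHCA4), the antenna of photosystem II (13 LHCB genes), subunits of photosystem II (10 PSB genes), subunits of photosystem I (11 PSA genes) and the small subunit of Rubisco (4 RBCS genes). They were taken by name and complex out of 32833 genes in the deposited table. They were read in RNA-seq libraries of freshly harvested seeds of Arabidopsis thaliana, with 3 libraries for wild-type Columbia-0 (Col-0) and 3 for the asf1a1b mutant, in which both genes for the histone chaperone ASF1 are affected. ASF1 hands histones H3 and H4 to other chaperones for assembly into chromatin. The labels name no alleles and do not say how many plants or harvests stand behind a library, and they mention a cold stratification without saying whether it applies to the seeds sequenced.

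In leaves, the antenna proteins hold chlorophyll and pass light energy to the reaction centres, where photosystem II splits water and photosystem I reduces ferredoxin, and Rubisco fixes carbon dioxide in the Calvin cycle. The genes of this group sit in the nucleus, are strongly expressed in green tissue in the light, and their products are imported into the plastid. Arabidopsis embryos are green while the seed fills and lose most of their chlorophyll before the seed is dry.

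Values are rescaled TPM, the authors' transcript-per-million values after a scaling between libraries, so levels are per length and can be compared between genes. Between 42771374 and 56017408 reads per library could be recovered from them. The check of the labels held: ASF1A lay between 15.4 and 17.8 in Col-0 and between 2.06 and 2.52 in asf1a1b, and ASF1B between 2.26 and 4.36 in Col-0 and between 0.157 and 0.334 in asf1a1b. The summed level of 6 seed genes (CRA1, CRU2, CRU3, SESA1, OLEO1 and OLEO2) lay between 47684 and 87472 in Col-0 and between 59684 and 77972 in asf1a1b. Within that list SESA1 was higher in the mutant and CRU2 lower (limma adjusted p = 0.00422 and 0.00294), and 4 genes were not called. Asf1a1b replicate 2 stood apart. Of 6 leaf and silique genes, all but TGG1 were near 0 in Col-0, and 5 of the 6 (CA1, CA2, LOX2, TGG2 and FUL) had their highest value of the 6 libraries in that library. The sum of the list without TGG1 was 0.033, 0 and 0.039 in Col-0 replicates 1 to 3, and 0.1, 16.6 and 1.82 in asf1a1b replicates 1 to 3. TGG2, a myrosinase gene, supplied 0.069, 12.7 and 1.401 of those mutant sums, LOX2, a lipoxygenase gene of leaves, 0, 2.62 and 0.069, and FUL, a MADS-box gene of the silique, 0, 1.04 and 0.257. The carbonic anhydrase genes CA1 and CA2, among the most abundant transcripts of leaves, stayed at 0.226 or below and at 0.023 or below in every library. TGG1, a second myrosinase gene, went the other way, with 25.8 to 44.9 in Col-0 and 3.34 to 20.7 in asf1a1b. Of 6 seed coat and endosperm genes, EPR1 carried the sum (6906 to 10325 in Col-0 and 9235 to 11139 in asf1a1b), PRX36 was higher in the mutant (limma adjusted p = 0.00355), and BAN, TT10, MUM4 and ZOU were below 1 in every library. The ratio of means fell by over 1.5 times without this library in 21 of the 40 members that had one. Sums and called members are given with and without it where it moves them so far.

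As a sum, the 42 genes were higher in the mutant seeds. Their summed level was 263, 210 and 188 rescaled TPM in Col-0 replicates 1 to 3 and 433, 467 and 477 in asf1a1b replicates 1 to 3, a ratio of means of 2.08 that was 2.06 without asf1a1b replicate 2. The groups did not overlap. Most of that sum came from few genes, since the 10 members with a mean of at least 5 held 93.9% of it in Col-0 and 89.2% in asf1a1b. Of these 10, 8 had a higher mean in the mutant. The largest rises in mean were those of PSBR, from 32.7 to 135, and RBCS1A, from 16.8 to 71.0, so the rise of the sum rests mainly on them. In bulk seed, more RNA per cell and more cells of a type that expresses these genes cannot be told apart.

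Member by member, a test was made for the 24 genes that averaged at least 1 across all libraries, with limma on log2(value + 1) and adjustment over all 14663 genes tested. In asf1a1b 12 members were higher, 1 was lower and 11 did not pass the threshold, an adjusted p of 0.05. Over all genes tested, 16.1% were higher and 14.5% lower by the same rule. Without asf1a1b replicate 2, 15 members reached the test, of which 9 were higher and 0 lower. Of the 14536 genes in that fit, 1305 were higher and 1041 lower, fewer than with all libraries. The level in the wild type matters for reading these counts, because a gene that is low in Col-0 reaches the test mainly when the mutant is high. Among the 12 tested members with a Col-0 mean of at least 1, 5 were higher (LHCA4, LHCB5, PSBP1, PSBR and RBCS1A) and 1 was lower (LHCB4.2), where 13.5% and 15.3% of the 13960 genes at that level were. Among the 12 with a Col-0 mean below 1, 7 were higher and 0 lower, a share near the 67.7% of the 703 such genes that were higher. Those 7 were LHCA1, LHCB1.2, LHCB1.3, LHCB3, PSBO1, PSBO2 and PSBQ1. The median log2 fold change was 0.35 over the 12 members with a Col-0 mean of at least 1 and -0.02 over all tested genes at that level, and 1.02 and 0.89 below it.

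The other 18 members stayed below a mean of 1 and were not tested, and 30 of the 42 had a Col-0 mean below 1. All 3 mutant libraries lay above all 3 Col-0 libraries in 24 members (57.1%, against 23.7% of the 25774 genes with any value) and below them in 1 (against 15.4%), while the groups overlapped in 17. Of the 12 tested members with a Col-0 mean of at least 1, 5 were above and 1 below in this way, against 21.7% and 24.1% of the tested genes at that level. Of the 12 below it, 8 were above, against 82.1%. Among the 18 not tested 11 were above, and no share of all genes at that level was taken. The mean was higher in the mutant in 38 members and lower in 3, LHCB4.2, PSAD2 and PSAH1. The remaining one, LHCB1.5, was listed at 0 in every library.

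**Figure D1:**
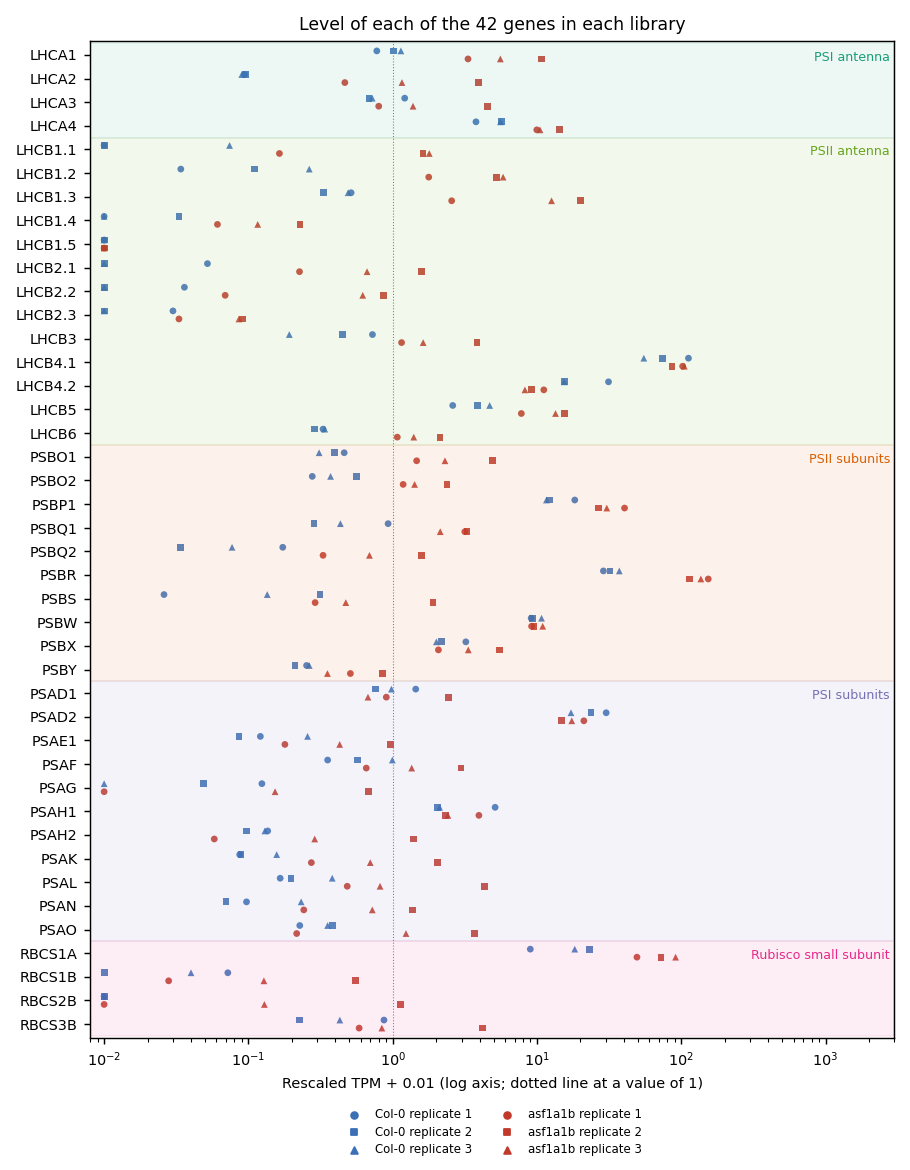
Level of each of the 42 genes in each library, in rescaled TPM plus 0.01 on a log axis, with Col-0 in blue, asf1a1b in red and the replicate given by the marker shape. LHCB4.1 and PSBR reached the highest levels, 30 genes had a Col-0 mean below 1, and asf1a1b replicate 2 (red squares) was the highest library in 31 genes.

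**Figure D2:**
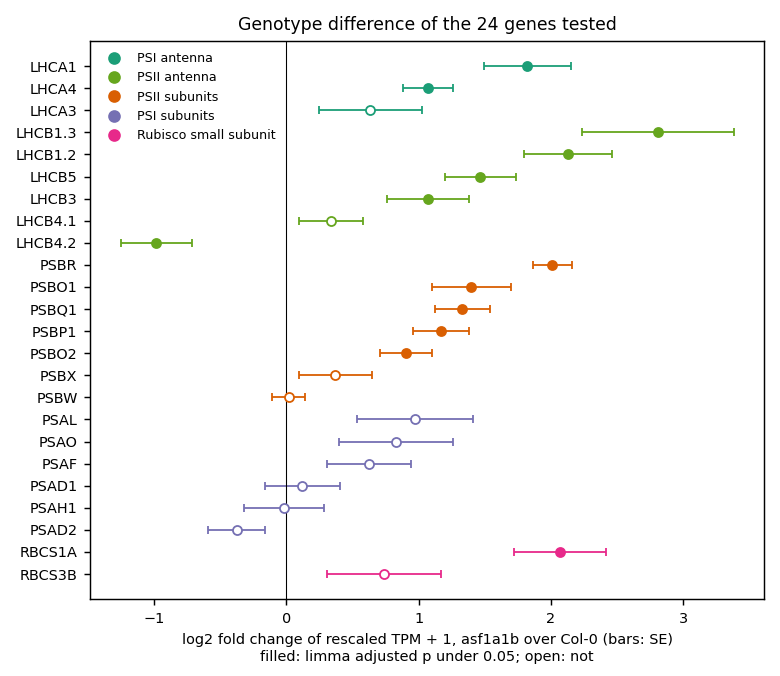
Genotype difference of the 24 genes tested, as the log2 fold change of rescaled TPM plus 1 of asf1a1b over Col-0 with its standard error, coloured by complex. Filled points passed an adjusted p of 0.05 in limma (12 higher, 1 lower) and open points did not. Over all genes tested, 16.1% were higher and 14.5% lower. Of the 12 higher, 7 had a Col-0 mean below 1, a level at which 67.7% of all genes tested were higher.

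Antenna genes ranged from a listed value of 0 to the highest levels among the 42. The promoters of 3 are shown because their genes differ in level and in call. The 250 bases before the annotated start are given 5' to 3' on the gene's strand, from the RefSeq annotation of the TAIR10.1 genome, for LHCA4 (chr3:17495034-17495283, minus strand), which was higher in the mutant, LHCB1.3 (chr1:10477635-10477884, plus strand), which had the largest log2 fold change of the 24, and LHCB4.1 (chr5:208616-208865, plus strand), which was the most abundant in Col-0 and did not pass. Capitals mark the G-box CACGTG, a site of bZIP and bHLH factors, and CCAATC, a motif bound by GLK factors, on either strand.
LHCA4: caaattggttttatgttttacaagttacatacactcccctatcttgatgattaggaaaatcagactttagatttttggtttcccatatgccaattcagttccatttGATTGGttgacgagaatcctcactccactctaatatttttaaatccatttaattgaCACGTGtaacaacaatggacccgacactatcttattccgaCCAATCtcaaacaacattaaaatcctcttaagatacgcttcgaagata
LHCB1.3: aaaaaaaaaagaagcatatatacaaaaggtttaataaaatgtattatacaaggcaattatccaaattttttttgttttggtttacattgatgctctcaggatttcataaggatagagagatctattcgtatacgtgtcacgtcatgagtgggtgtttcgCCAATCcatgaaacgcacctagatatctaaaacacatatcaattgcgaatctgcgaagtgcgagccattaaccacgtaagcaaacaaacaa
LHCB4.1: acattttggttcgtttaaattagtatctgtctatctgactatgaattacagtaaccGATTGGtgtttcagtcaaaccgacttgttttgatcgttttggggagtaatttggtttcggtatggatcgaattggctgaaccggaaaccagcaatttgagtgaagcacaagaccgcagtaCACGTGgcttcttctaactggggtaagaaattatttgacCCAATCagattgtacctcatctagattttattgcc
The G-box occurred in 8 of the 42 promoters (19.0%) and in 6.49% of the 27443 promoters of protein-coding genes of the same length. CCAATC occurred in 11 of the 42 (26.2%, against 10.2%), the I-box GATAAG of light-regulated promoters in 10 (23.8%, against 12.3%), and the RY motif CATGCA, a site of B3-domain factors of seeds, in 4 (9.52%, against 8.43%). Both strands were searched, and no matches of different motifs shared a base in the 42 promoters. The printed promoters of LHCA4 and LHCB4.1 each hold 1 G-box and 2 copies of CCAATC, while that of LHCB1.3 holds 1 copy of CCAATC and no G-box. These are matches of letters only.

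The photosystem I antenna was higher in the mutant, and LHCA4 and LHCA1 passed the test. LHCA1 had a Col-0 mean of 0.967, and 67.7% of all tested genes with a Col-0 mean below 1 were higher. Its proteins bind chlorophyll around photosystem I as a belt of dimers. The summed level of the 4 genes was 5.82, 7.40 and 7.50 rescaled TPM in Col-0 libraries and 14.5, 33.6 and 18.6 in asf1a1b, a ratio of 3.22 that fell to 2.40 without asf1a1b replicate 2. LHCA4 (AT3G47470), the most abundant of them, had 3.77, 5.64 and 5.57 in Col-0 replicates 1 to 3 and 9.96, 14.4 and 10.5 in asf1a1b replicates 1 to 3. Every mutant library was above every Col-0 library, and the means of 4.99 ± 1.06 and 11.6 ± 2.42 (SD, n = 3) gave a log2 fold change of 1.07 ± 0.19 (SE, with a limma adjusted p = 0.00694). LHCA1 (AT3G54890), the partner of LHCA4 in one of the dimers, had 0.766, 1.004 and 1.13 in Col-0 and 3.32, 10.7 and 5.56 in asf1a1b. Here too the groups were apart, with a wide spread in the mutant (log2 fold change 1.82 ± 0.33, SE, limma adjusted p = 0.00747). The LHCA2 to LHCA3 pair behaved less evenly. LHCA3 (AT1G61520) averaged 0.862 ± 0.294 in Col-0 and 2.24 ± 2.03 in the mutant (SD, n = 3) and did not pass (limma adjusted p = 0.245), with 4.55 in asf1a1b replicate 2 and 0.790 and 1.37 in the other mutant libraries. LHCA2 (AT3G61470), not tested, was at 0.0833 ± 0.00306 in Col-0 and 1.85 ± 1.84 in the mutant (SD, n = 3), from 12 reads in all of Col-0 and 310 in the mutant, 233 of them in asf1a1b replicate 2.

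The photosystem II antenna held both the largest log2 fold change upward and the only member called lower, and most of its sum came from 1 gene that did not pass. The summed level of the 13 genes was 148, 94.2 and 76.4 rescaled TPM in Col-0 libraries and 128, 146 and 151 in asf1a1b, a ratio of 1.34, and the groups overlapped. LHCB4.1 (AT5G01530) made up 75.7% of the Col-0 sum and 68.9% of the mutant sum. It encodes a copy of CP29, a monomeric antenna protein that links the core of photosystem II to the trimeric antenna. LHCB4.1 had 112, 73.7 and 55.0 in Col-0 and 102, 86.2 and 105 in asf1a1b, with means of 80.3 ± 29.1 and 97.8 ± 10.1 (SD, n = 3). The groups overlapped and it did not pass (log2 fold change 0.34 ± 0.24, SE, limma adjusted p = 0.32), but without Col-0 replicate 1, its highest library, it did (0.61, limma adjusted p = 0.029).

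The second CP29 gene, LHCB4.2 (AT3G08940), fell. It had 31.3, 15.4 and 15.4 rescaled TPM in Col-0 libraries and 11.1, 9.14 and 8.24 in asf1a1b, so that all mutant libraries lay below all Col-0 libraries. The log2 fold change was -0.98 ± 0.27 (SE, with a limma adjusted p = 0.03), and the call ended without asf1a1b replicate 2 or 3 and with no filter on low genes (adjusted p up to 0.114). Within the pair, LHCB4.2 supplied 21.8%, 17.3% and 21.9% of the summed level in Col-0 and 9.83%, 9.58% and 7.28% in asf1a1b. The groups did not overlap in this share either, and the sum of the pair was 101 ± 37.9 in Col-0 and 107 ± 10.4 in the mutant (SD, n = 3). The coding sequences of the pair are 81.1% identical and no 100-base window of their exons occurs elsewhere in the genome. LHCB4.3, another gene of the CP29 family that was outside the 42, rose from 2.08 ± 0.576 to 4.89 ± 1.02 (SD, n = 3, log2 fold change 0.94 ± 0.20, SE, limma adjusted p = 0.0121).

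The major trimeric antenna, LHCII, is built from LHCB1, LHCB2 and LHCB3 proteins, and in leaves its genes are among the most abundant of the nucleus. In these seeds they were nearly unread in the wild type. Those called (LHCB1.2, LHCB1.3 and LHCB3) had a Col-0 mean below 1, a level at which 67.7% of all genes tested were higher. The 5 LHCB1 genes summed to 0.591 ± 0.185 rescaled TPM in Col-0 and 17.3 ± 11.5 in the mutant (SD, n = 3), with 0.529, 0.445 and 0.799 in Col-0 and 4.53, 27.0 and 20.3 in asf1a1b. LHCB1.3 (AT1G29930) had 0.505, 0.322 and 0.481 in Col-0 and 2.55, 19.9 and 12.6 in asf1a1b. All mutant libraries were above all Col-0 libraries, and the log2 fold change was 2.81 ± 0.57 (SE, with a limma adjusted p = 0.0109). The ratio of means was 26.8, or 17.4 without asf1a1b replicate 2, and the call ended without asf1a1b replicate 3 (limma adjusted p = 0.0544). LHCB1.2 (AT1G29910) had 0.024, 0.1 and 0.254 in Col-0 and 1.77, 5.25 and 5.81 in asf1a1b, from 16 reads over Col-0 and 589 over the mutant. Its groups were far apart as well (log2 fold change 2.13 ± 0.33, SE, limma adjusted p = 0.00457), with a ratio of 34.0, or 69.0 without Col-0 replicate 3.

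The other LHCII genes were counted in single reads in Col-0. LHCB1.1 (AT1G29920) had 3 reads in all of Col-0 and 179 in the mutant, LHCB1.4 (AT2G34430) 1 and 19, LHCB2.1 (AT2G05100) 2 and 135 (93 of them in asf1a1b replicate 2), LHCB2.2 (AT2G05070) 1 and 68, and LHCB2.3 (AT3G27690) 1 and 10. LHCB1.5 (AT2G34420) had no read in either group. All of its exon bases are shared with a gene on the opposite strand that was also at 0. How reads shared by overlapping genes were counted is not known here, so the 0 need not mean that LHCB1.5 was silent. LHCB1.1, LHCB1.2 and LHCB1.3 lie side by side on chromosome 1 between 10472280 and 10479114 of TAIR10.1, and each of them had more reads in asf1a1b replicates 2 and 3 than in replicate 1. Coding sequences of the LHCB1 genes are 86.8% to 96.4% identical, and 1.51% to 4.44% of the 100-base windows of their exons, like 10.7% and 13.7% of those of LHCB2.1 and LHCB2.2, occur elsewhere in the genome, so reads can be split between copies and single-copy values are uncertain. LHCB3 (AT5G54270), the minor LHCII protein, averaged 0.446 ± 0.266 in Col-0 and 2.196 ± 1.43 in the mutant (SD, n = 3, log2 fold change 1.07 ± 0.31, SE, limma adjusted p = 0.0349). Its ratio of 4.93 was 3.09 without asf1a1b replicate 2, and the call ended in 3 of the 5 fits without 1 library in which it was tested (adjusted p up to 0.0954). Without asf1a1b replicate 2 its mean was below 1 and it was not tested.

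The remaining monomeric antenna proteins are CP26 and CP24. LHCB5 (AT4G10340), the gene for CP26, rose from 3.72 ± 1.06 to 12.3 ± 4.025 (SD, n = 3, log2 fold change 1.46 ± 0.27, SE, limma adjusted p = 0.00764). It had 2.60 to 4.69 in Col-0 and 7.78 to 15.6 in asf1a1b. LHCB6 (AT1G15820), the gene for CP24, had 0.308 ± 0.0267 in Col-0 and 1.52 ± 0.537 in the mutant (SD, n = 3) with no overlap, but its overall mean was below 1 and it was not tested.

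Among the subunits of photosystem II, PSBR, PSBP1, PSBO1, PSBO2 and PSBQ1 were higher in the mutant, PSBW and PSBX did not pass, and PSBQ2, PSBS and PSBY were not tested. PSBO1, PSBO2 and PSBQ1 had a Col-0 mean below 1, a level at which 67.7% of all genes tested were higher. The summed level of the 10 genes was 61.5, 57.3 and 63.1 rescaled TPM in Col-0 libraries and 212, 171 and 189 in asf1a1b. The groups were far apart, and the ratio of 3.15 was 3.31 without asf1a1b replicate 2. PSBR (AT1G79040), a small subunit needed for stable docking of PSBP, supplied 53.9% of that sum in Col-0 and 70.8% in asf1a1b. It had 28.9, 32.0 and 37.2 in Col-0 and 154, 115 and 137 in asf1a1b. The means were 32.7 ± 4.21 and 135 ± 19.6 (SD, n = 3), a ratio of 4.13, and the log2 fold change of 2.01 ± 0.15 (SE, with a limma adjusted p = 0.000654) had the smallest adjusted p of the 42 genes. Among the mutant libraries PSBR was lowest in asf1a1b replicate 2.

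PSBO, PSBP and PSBQ form the oxygen-evolving cap that covers the manganese cluster on the lumenal side. PSBP1 (AT1G06680) had 18.3, 12.1 and 11.6 rescaled TPM in Col-0 libraries and 40.4, 26.7 and 30.5 in asf1a1b. The groups did not overlap, and the log2 fold change was 1.17 ± 0.21 (SE, with a limma adjusted p = 0.00729). PSBO1 (AT5G66570), the main copy of the manganese-stabilising protein in leaves, had 0.451, 0.383 and 0.299 in Col-0 and 1.46, 4.89 and 2.29 in asf1a1b. Its ratio of 7.62 was 4.96 without asf1a1b replicate 2 (log2 fold change 1.397 ± 0.30, SE, limma adjusted p = 0.0129). PSBO2 (AT3G50820) rose from 0.393 ± 0.144 to 1.65 ± 0.633 and PSBQ1 (AT4G21280) from 0.539 ± 0.337 to 2.85 ± 0.629 (SD, n = 3, log2 fold changes 0.91 ± 0.20 and 1.33 ± 0.21, SE, limma adjusted p = 0.0138 and 0.0045). PSBO1, PSBO2 and PSBQ1 each reached the mean needed for the test through their mutant libraries. The ratio for PSBQ1 was 5.28, and 8.15 without Col-0 replicate 1. PSBQ2 (AT4G05180), not tested, had 11 reads over Col-0 and 127 over the mutant, 84 of them in asf1a1b replicate 2.

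Of the small membrane subunits, PSBW and PSBX were tested. PSBW (AT2G30570), a subunit at the edge of the dimer, was close to level, with 9.72 ± 0.894 in Col-0 and 9.87 ± 0.943 in the mutant (SD, n = 3, log2 fold change 0.02 ± 0.12, SE, limma adjusted p = 0.915). The sign of this difference changed under 2 of the 3 other scalings. PSBX (AT2G06520) had 2.45 ± 0.655 and 3.63 ± 1.73 (SD, n = 3) and did not pass either (limma adjusted p = 0.337). PSBY (AT1G67740), at 0.232 ± 0.0285 and 0.560 ± 0.254, and PSBS (AT1G44575), the sensor of excess light, at 0.148 ± 0.145 and 0.879 ± 0.884 (SD, n = 3), were too low to test. The groups of PSBY did not overlap, with a ratio of 2.41, while those of PSBS did, with a ratio of 5.94 that was 2.51 without asf1a1b replicate 2.

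**Figure D3:**
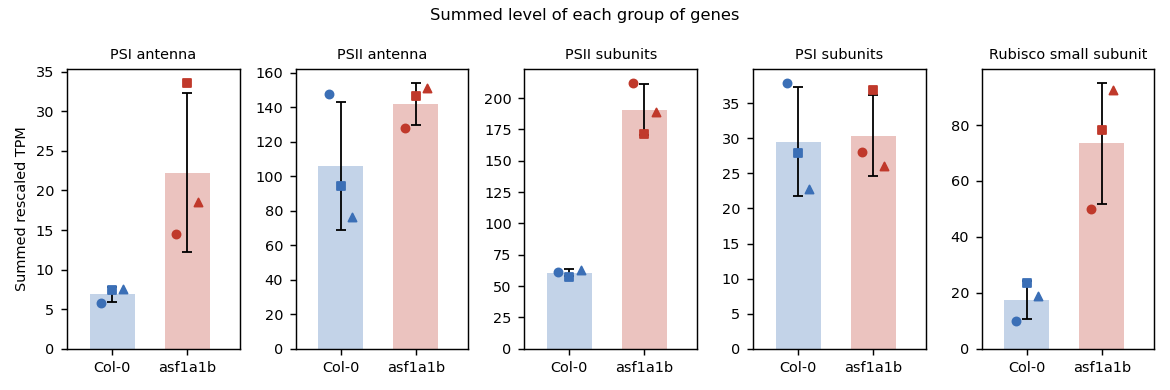
Summed rescaled TPM of the genes of each complex in Col-0 (blue) and asf1a1b (red), with bars for the mean of 3 libraries, error bars for the SD and a marker for each library. The groups were apart for the photosystem I antenna, the photosystem II subunits and Rubisco, and overlapped for the photosystem II antenna and the photosystem I subunits.

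None of the 11 photosystem I genes among the 42 passed the test, in either direction. Of the 11, 6 were tested and 5 were not, and in 9 of the 11 the highest of the 6 libraries was asf1a1b replicate 2. The summed level was 37.9, 27.9 and 22.7 rescaled TPM in Col-0 libraries and 28.0, 36.9 and 26.1 in asf1a1b, a ratio of 1.03 that was 0.916 without asf1a1b replicate 2. PSAD2 (AT1G03130), which with PSAD1 encodes the docking site of ferredoxin, supplied 80.2% of the sum in Col-0 and 58.6% in asf1a1b. PSAD2 had 30.2, 23.7 and 17.2 in Col-0 and 21.1, 14.8 and 17.4 in asf1a1b. The groups overlapped, and the log2 fold change was -0.37 ± 0.21 (SE, with a limma adjusted p = 0.217). PSAH1 (AT3G16140), a subunit at the site where LHCII docks, had 5.12, 2.04 and 2.104 in Col-0 and 3.95, 2.31 and 2.40 in asf1a1b. Here replicate 1 was the highest in both genotypes and no difference was detected (log2 fold change -0.02 ± 0.30, SE, limma adjusted p = 0.97), with a sign that changed in 3 of the 6 fits without 1 library.

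The other 9 photosystem I genes were low, and their values differed between the mutant libraries. Their ratio to the Col-0 mean ran from 0 to 2.60 in asf1a1b replicate 1, from 2.31 to 20.2 in replicate 2 and from 0.631 to 6.82 in replicate 3. PSAL (AT4G12800), a subunit beside PSAH, had 0.238 ± 0.116 in Col-0 and 1.87 ± 2.14 in the mutant (SD, n = 3), with 0.474, 4.34 and 0.807 in the mutant libraries (limma adjusted p = 0.13). PSAF (AT1G31330), the docking subunit of plastocyanin, and PSAO (AT1G08380) had adjusted p of 0.169 and 0.179 in limma and passed without asf1a1b replicate 1 (0.0407 and 0.0192), the mutant library in which both were lowest. PSAD1 (AT4G02770) was at 1.052 ± 0.349 in Col-0 and 1.33 ± 0.963 in the mutant (SD, n = 3, limma adjusted p = 0.772). PSAE1, PSAG, PSAH2, PSAK and PSAN had 4 to 13 reads each in all of Col-0 and 26 to 91 in the mutant.

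Rubisco small subunit transcripts were higher in the mutant through a single gene. The 4 genes summed to 9.90, 23.4 and 18.7 rescaled TPM in Col-0 libraries and 49.9, 78.3 and 92.4 in asf1a1b, a ratio of 4.24, or 4.103 without asf1a1b replicate 2. RBCS1A (AT1G67090), one of the main copies of leaves, supplied 90.7% to 99.1% of that sum in Col-0 libraries and 92.5% to 98.8% in asf1a1b libraries. It had 8.98, 23.2 and 18.3 in Col-0 and 49.3, 72.5 and 91.3 in asf1a1b. All mutant values were at least 2 times the highest Col-0 value, and the log2 fold change was 2.07 ± 0.35 (SE, with a limma adjusted p = 0.00581). The other 3 copies lie side by side on chromosome 5 between 15376988 and 15385320 of TAIR10.1. RBCS3B (AT5G38410) had 0.860, 0.216 and 0.420 in Col-0 and 0.575, 4.18 and 0.831 in asf1a1b and did not pass (limma adjusted p = 0.225). RBCS1B (AT5G38430) had 0.062, 0 and 0.03 in Col-0 and 0.018, 0.540 and 0.118 in asf1a1b. RBCS2B (AT5G38420) had no read in Col-0, which allows up to 0.0314 rescaled TPM at 3 counts over the group, and 0, 1.12 and 0.119 in asf1a1b. The 3 clustered genes were thus each highest in asf1a1b replicate 2, and none of them was higher than all Col-0 libraries in asf1a1b replicate 1. Coding sequences of the 4 copies are 87.7% to 97.3% identical, and 8.20% and 11.8% of the exon windows of RBCS1B and RBCS3B occur elsewhere, while none of RBCS1A does.

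Taken one by one, the mutant libraries differed in how many of the 42 genes they raised. The median ratio to the Col-0 mean over the 40 members with reads in Col-0 was 2.12 in asf1a1b replicate 1, 8.49 in replicate 2 and 3.62 in replicate 3. Replicate 1 lay above all Col-0 libraries in 24 of the 42 members, replicate 2 in 36 and replicate 3 in 35, where 35.8%, 45.5% and 39.8% of the genes with any value did. For the photosystem I subunits the median ratios were 1.03, 11.0 and 2.80 in that order. Asf1a1b replicate 2 was the highest of the 6 libraries in 31 members (73.8%), against 26.4% of the genes with any value.

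Asf1a1b replicate 2 was more often the highest library among the low members than among the high ones. Among the 18 members with a mean below 1, asf1a1b replicate 2 was the highest library in 16, against 38.6% of all genes at that level. Among the 10 with a mean of at least 5 it was the highest in 3, against 15.9% of all genes at that level, and among all 24 with a mean of at least 1 in 15, against 17.2%. The low members summed to 1.49, 1.26 and 1.68 rescaled TPM in Col-0 libraries and 3.85, 22.8 and 9.73 in asf1a1b, a ratio of 8.21 that dropped to 4.60 without replicate 2. The high members had a ratio of 1.98, and 2.04 without it. The leaf and silique genes CA1, CA2, LOX2, TGG2 and FUL were highest in the same library, and their part in the values of the low members was not tested. For PSBR, PSBP1 and RBCS1A the mutant library with the highest value was replicate 1, 1 and 3, and their ratios without replicate 2 were 4.44, 2.53 and 4.18. The other high members called higher, LHCA4, LHCB5 and LHCB1.3, were each highest in replicate 2. Their ratios were 2.33, 3.29 and 26.8, and 2.05, 2.85 and 17.4 without it.

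**Figure D4:**
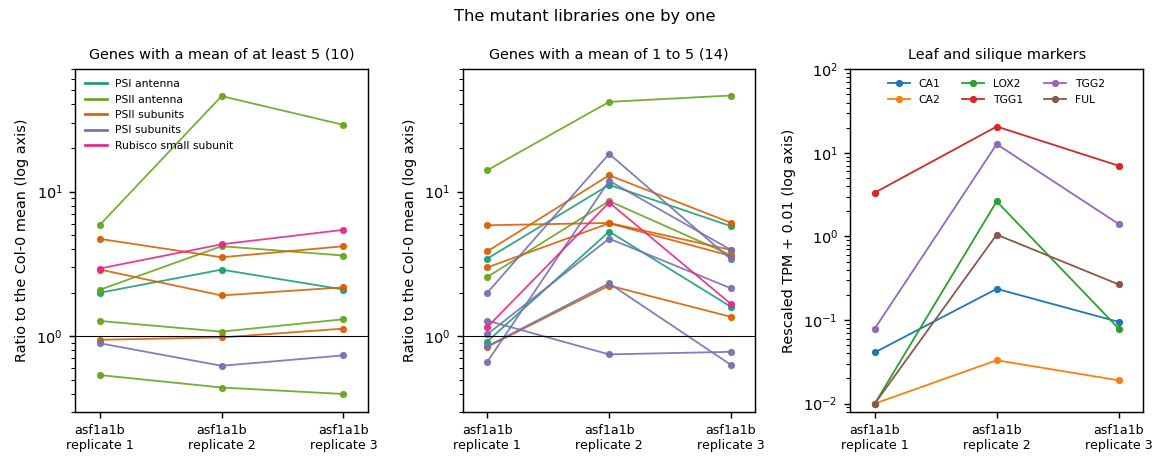
Ratio of each asf1a1b library to the Col-0 mean on a log axis for the 10 members with a mean of at least 5 (left) and the 14 with a mean of 1 to 5 (middle), coloured by complex, with the rescaled TPM plus 0.01 of the 6 leaf and silique genes in the same libraries (right, log axis); each line joins the values of 1 gene and the libraries have no order. In the middle panel 12 genes peak in replicate 2, as do the leaf and silique genes, while 3 genes of the left panel do.

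Lists of genes that work with these complexes are given as counts, to be read against the 16.1% higher and 14.5% lower of all genes tested. Of 12 further antenna and photosystem genes, 9 were tested, 3 were higher, 2 lower and 4 not called. PSBP2, a second PSBP gene, rose from 0.689 ± 0.241 to 2.32 ± 0.0739, and PSAE2, the second gene for the stromal subunit PSAE, from 1.81 ± 0.575 to 4.15 ± 1.07 (mean ± SD, n = 3, with limma adjusted p = 0.00425 and 0.019). LHCA5, a rare photosystem I antenna protein of the NDH supercomplex, fell from 6.34 ± 0.964 to 3.36 ± 0.620 (SD, n = 3, limma adjusted p = 0.0133). Of 6 light-harvesting-like genes, 4 were tested and 1 was lower, OHP2, a factor for assembly of the photosystem II reaction centre, which fell from 7.39 ± 2.14 to 1.88 ± 0.696 (SD, n = 3, limma adjusted p = 0.00472).

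In electron transport, 9 of 14 genes were tested, with 1 higher, 4 lower and 4 not called. PETC, the Rieske protein of the cytochrome b6f complex, rose from 9.35 ± 3.56 to 17.4 ± 2.26 (SD, n = 3, limma adjusted p = 0.0269). The ferredoxin genes, whose product takes electrons from photosystem I, were lower. FD1 fell from 5.23 ± 1.90 to 1.72 ± 0.346 and FD2 from 19.0 ± 2.57 to 9.69 ± 1.55 (mean ± SD, n = 3, with limma adjusted p = 0.0122 and 0.00619). PGRL1B, of cyclic electron flow, also fell (log2 fold change -1.05 ± 0.25, SE, limma adjusted p = 0.0178).

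In the Calvin cycle, 16 of 18 genes were tested, with 3 higher, 2 lower and 11 not called, near the shares of all genes. CP12-1, a small regulator that binds GAPDH and phosphoribulokinase, rose from 204 ± 27.8 to 419 ± 35.8, and CFBP1, the plastid fructose-bisphosphatase, from 32.4 ± 7.28 to 69.9 ± 18.3 (mean ± SD, n = 3, with limma adjusted p = 0.00318 and 0.0113). PGK1, a plastid phosphoglycerate kinase, fell from 29.3 ± 3.25 to 14.03 ± 3.70, and CP12-3 from 21.6 ± 1.21 to 14.8 ± 2.64 (mean ± SD, n = 3, with limma adjusted p = 0.00693 and 0.0288). RCA, the gene for Rubisco activase, did not pass (limma adjusted p = 0.636).

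Of 20 chlorophyll synthesis genes, 12 were tested, 0 were higher, 1 was lower and 11 were not called. All mutant libraries lay above all Col-0 libraries in 10 of the 20 and below them in 4, against 23.7% and 15.4% of the genes with any value. Of all tested genes with a Col-0 mean below 1, 82.1% lay above in this way. Among the 10 were the low genes HEMA1, PORA and PORB, of the first and a late step, with ratios of means of 7.90, 10.1 and 7.89, and the authors' deposited table marks these and CRD1 up. The one called lower was GSA2, an enzyme of 5-aminolevulinate synthesis, which fell from 3.90 ± 0.459 to 1.26 ± 0.654 (SD, n = 3, limma adjusted p = 0.00788). Of 11 genes for antenna insertion and Rubisco assembly, 9 were tested, with 1 higher, 4 lower and 4 not called. ALB3, the thylakoid insertase of antenna proteins, was the one that rose (limma adjusted p = 0.022), and BSD2, a chaperone of Rubisco assembly, fell from 4.41 ± 0.662 to 2.13 ± 0.223 (SD, n = 3, limma adjusted p = 0.00755). CPFTSY, the receptor for antenna targeting, and the chaperonin CPN60A1 also fell (limma adjusted p = 0.0109 and 0.0418). Of 10 photorespiration genes, 9 were tested, with 1 higher (GLYK, glycerate kinase), 2 lower (GOX2, a glycolate oxidase, and AGT1, an aminotransferase) and 6 not called.

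Of 20 regulators of photosynthesis genes, 19 were tested, 2 were higher, 2 lower and 15 not called, smaller shares than over all genes. PHYA, the phytochrome of dark-grown tissue, rose from 33.3 ± 4.23 to 49.1 ± 3.23, and GBF1, a factor that binds the G-box, from 54.8 ± 16.3 to 84.6 ± 7.75 (mean ± SD, n = 3, with limma adjusted p = 0.0152 and 0.0437). ABI4, a factor of abscisic acid signalling, fell from 4.79 ± 0.963 to 1.91 ± 0.140, and GUN1, of plastid-to-nucleus signalling, from 33.5 ± 5.11 to 21.8 ± 1.44 (mean ± SD, n = 3, with limma adjusted p = 0.00457 and 0.0156). HY5, a light-signalling factor, and GLK2, an activator of antenna genes, did not pass (limma adjusted p = 0.405 and 0.391).

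The authors' deposited table lists 24 of the 42 genes among its 15257, and marks 13 as up and 0 as down, where it marks 6.23% of all its genes up and 2.52% down. Its marks begin at a log2 fold change of about 1.5 in either direction. Of the members it marks up, all but LHCB5, PSBR and RBCS1A had a Col-0 mean below 1. Of the genes tested here at that level, 67.7% were higher, and no share matched for level was taken for the deposited marks. In the authors' deposited table LHCB1.3 is listed at a log2 fold change of 4.74 (adjusted p 1.87e-13), PSBR at 2.02 (1.43e-27) and RBCS1A at 2.06 (6.85e-08). The same table marks LHCA2, LHCB1.1 and LHCB6 up, which were too low for the test made here, and gives LHCB4.2 -1.14 with an adjusted p of 0.000883 and no mark.

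Reads of neighbouring genes could enter some of these values, or shared reads could be left out, since the strand setting of the counting is not known here. Their part was not tested. Of the 13 called members, 6 share exon bases with another gene (LHCA4, LHCB1.3, LHCB3, LHCB4.2, PSBP1 and PSBR), over 15.0% of the exon bases of LHCB3, 8.78% of LHCB1.3 and 6.51% of PSBR. The neighbour averaged 5.47 in Col-0 and 5.67 in the mutant for LHCB3, 20.2 and 17.4 for LHCB1.3, and 23.7 and 18.2 for PSBR. RBCS1A, LHCB5 and LHCB1.2 share none. The largest shares were in members without a call, with 100% of the exon bases of LHCB1.5, 61.4% of PSAG, 53.3% of PSAH1 and 40.6% of LHCB2.3.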

How the data were processed

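Total RNA of fresh seeds was sequenced, and groups and replicate numbers were read from the sample titles. The submitters' processing notes name HISAT2 2.2.1, fastp 0.23.4 and the TAIR10 build. Counter, strand setting and the authors' test were not given in any source used. The deposited signal values are called TPM by the authors, but library totals run from 915126 to 1049698, so they are TPM after a rescaling that no source names. The design foresaw plain TPM or raw counts, and the test foreseen for TPM was kept. The authors' second table gives log2 fold changes and adjusted p-values, quoted only where named as deposited by the authors. There were 0 unused columns.

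Genes averaging at least 1 across the 6 libraries were tested in R 4.3.3 by limma 3.58.1 (eBayes with trend, two-sided, Benjamini-Hochberg, threshold 0.05) on log2(value + 1), which understates changes of low genes. Ratios are of group means of the values as deposited. Reads were recovered for 32548 genes as value times merged exon length (TAIR10.1, same nuclear sequence) over a step per library, and 99.3% to 99.4% of the values checked lay within 0.1 of a whole number. The code was tested on simulated data. Tables, motif searches and figures were made in Python 3.11.15 with pandas 2.3.3 and matplotlib 3.10.9.

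The members and lists were chosen with earlier results of these data known. Values in every library are given for the 2 highest members of each complex, the 2 called with the largest change in each direction, and all RBCS genes, and up to 4 called genes were named per other list, apart from 1 that is not reported here. Single libraries of other members are added where they carry a result. The split of members by Col-0 level was added after the values were seen. Alternatives were other scalings, pseudocounts and filters, no trend, a replicate block, limma-voom on recovered reads and leaving out each library. Departures from the group mean, taken across genes between libraries that carry one number, correlated at 0.427, 0.144 and 0.327. This met the rule set for a replicate block (all above 0.1). No label names a shared batch and Col-0 replicate 3 with asf1a1b replicate 2 gave 0.381, so a pairing by number is not settled. Nothing says that replicates came from separate plants, so p-values measure the spread between these libraries, which may be technical. The floor of 3 counts covers counting error only.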

Additional observations from a re-analysis of the deposited data

How the results depend on the processing

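With the replicate number as a block, 12 members were higher and 1 lower in asf1a1b as before, no call of a member changed, and 3067 and 2758 of all genes were higher and lower in place of 2362 and 2132. With a mean of at least 5 required, 6 members were higher and 1222 and 1322 genes were higher and lower over fewer genes tested. With no filter 0 members were lower. When 1 library was left out, 9 to 14 members were higher and 0 to 1 lower, and 991 to 2738 and 776 to 2476 of all genes were higher and lower. The 9 came without asf1a1b replicate 2, when only 15 members reached the test, and without asf1a1b replicate 3. Without Col-0 replicate 2, 1242 and 880 of all genes were higher and lower, without asf1a1b replicate 2, 1305 and 1041, and without asf1a1b replicate 3, 991 and 776. The uncalled difference of PSBW changed sign with median-of-ratios scaling (-0.0438 on the log2 scale), with equal totals set without the 20 highest genes (-0.000307) and in 3 fits without 1 library (range -0.049 to 0.088), and that of PSAH1 in 3 such fits (range -0.204 to 0.314). The cause was not tested. LHCB1.3 lost its call in 1 alternative, LHCB3 in 4 and LHCB4.2 in 3. PSBO2 was too low to be tested in 4 alternatives (median-of-ratios scaling and without each asf1a1b library), and LHCB3 and PSBO1 without asf1a1b replicate 2, while LHCB4.1, PSAF and PSAO gained one in 1 each. Over the fold changes of single members, 313 alternatives gave the same direction and side of the threshold. In 8 the sign changed, in 8 a call was lost and in 3 one was gained. Alternatives in which a member was not tested are left out of these counts. Low members rest on few reads, so their ratios are imprecise.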

Other observations

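GLK1 and GLK2 encode a pair of transcription factors that activate antenna and chlorophyll genes in leaves. GLK1 (AT2G20570), singled out after its values were seen, had 0.871, 1.64 and 2.64 rescaled TPM in Col-0 replicates 1 to 3 and 0.156, 0.289 and 0.064 in asf1a1b. All mutant libraries lay below all Col-0 libraries. Its overall mean was below 1 and it was not tested, and the authors' deposited table gives it a log2 fold change of -3.34 with an adjusted p of 1.34e-06. GLK2 (AT5G44190) had 13.6, 25.4 and 30.2 in Col-0 and 20.2, 37.4 and 31.6 in asf1a1b and overlapped between the groups.

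Some of the other photosynthesis genes were also highest in asf1a1b replicate 2. This held for 5 of 12 further antenna and photosystem genes, 6 of 14 electron transport genes, 7 of 18 Calvin cycle genes, 8 of 20 chlorophyll synthesis genes, 4 of 10 photorespiration genes, 3 of 11 insertion and assembly genes, 5 of 20 regulators and 0 of 6 light-harvesting-like genes, against 26.4% of all genes with any value. Among them, chosen after their values were seen, were the plastocyanin gene PETE2 with 0.902, 3.80 and 1.03 in the mutant libraries and the ferredoxin reductase gene FNR1 with 0.671, 2.88 and 1.13.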
